A study of Mus musculus with 4 samples.

Results

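The macrophage cluster of orthotopic CT26 colon tumors held 576 of the 17674 cells in the table, 315 from Cyp51-KO tumors and 261 from sg-Ctrl tumors. Its members were all cells that carry the cluster name Macrophage in the annotation deposited by the authors. CT26 is a mouse colorectal cancer line. It had received a lentiviral CRISPR construct with TagBFP and a guide against Cyp51, which encodes an enzyme of cholesterol synthesis, in the Cyp51-KO group, or a control guide in the sg-Ctrl group. The cells were injected orthotopically into male BALB/c mice of 8 to 10 weeks, and tumors were taken at day 26, 9 with the Cyp51 guide and 12 with the control guide. The guides acted in the injected line, so the macrophages described here came from hosts that had received no guide. All leukocytes (bulk CD45+, 50% of the final mix), T cells (CD45+ CD3+, 40%) and BFP+ tumor cells lacking CD45 (10%) had been sorted apart and recombined before droplet sequencing from the 5' end of transcripts. Macrophages could enter this mix through the bulk CD45+ sort.

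Each group is listed with 2 samples, but the cell names carry only the start of the sample titles, 51V or NCV, and a single ending. No cell could therefore be tied to a sample or a tumor, each group was treated as 1 sample, and no test between groups was possible. Shares are given with exact 95% binomial (Clopper-Pearson) intervals, and values per cell with their quartiles over cells. Both describe the sequenced cells and hold no variation between tumors, sorts or libraries. The groups had 98 cell barcodes in common. Of these, 9 belonged to a macrophage in a single group and 0 to a macrophage in both.

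Tumor macrophages arise from blood monocytes or resident tissue cells. They take up debris and lipids, present antigen on MHC class II and release chemokines and cytokines that draw in and instruct other leukocytes. Apoe, the marker given for this cluster, encodes apolipoprotein E, a carrier of cholesterol and other lipids that macrophages secrete. The study's own list of leading genes for the cluster names Apoe beside Lyz2 (lysozyme), Cd14 (a co-receptor for bacterial lipopolysaccharide), Il1b (the inflammatory cytokine interleukin-1 beta), the chemokines Cxcl2, Cxcl3 and Ccl6, and H2-Aa, H2-Ab1 and Cd74 of the MHC class II pathway. The chemokines Cxcl2 and Cxcl3 attract neutrophils. Of these genes, Apoe, Lyz2, Cd74, H2-Aa and H2-Ab1 also stand in the list of the cluster named Monocyte, which is led by the complement genes C1qa, C1qb and C1qc, usual markers of mature macrophages. Cxcl2 is also in the list of the neutrophils. Being listed for Apoe therefore does not by itself tell the cluster named Macrophage from that named Monocyte, and levels of Apoe were not compared. The table analysed here has values per cell and no values per gene, so the name could not be checked against Apoe or any other marker in these cells, and the name of the authors is kept.

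To see how the macrophage cluster stood among the myeloid cells of the groups, its share was taken over the 5 myeloid clusters. In Cyp51-KO tumors 315 of 1946 myeloid cells were in the macrophage cluster, a share of 16.2% (95% interval 14.6 to 17.9%). In sg-Ctrl tumors 261 of 1201 were, a share of 21.7% (19.4 to 24.2%), which gave a log2 ratio (Cyp51-KO over sg-Ctrl) of -0.42. The intervals lay apart. The size of the difference depended on the cluster it was counted against. Counted against the monocyte cluster alone, there were 54.3 macrophages for each 100 monocyte-cluster cells in Cyp51-KO tumors and 92.9 in sg-Ctrl tumors. Within these 2 clusters, whose gene lists both hold Apoe, macrophages were 35.2% (32.1 to 38.4%) of the Cyp51-KO cells. They were 48.2% (43.9 to 52.5%) of the sg-Ctrl cells, a log2 ratio of -0.45 with the intervals apart. The 2 clusters jointly held 895 of 1946 Cyp51-KO and 542 of 1201 sg-Ctrl myeloid cells, a nearly level share. The monocyte cluster alone had the higher share in Cyp51-KO tumors, at 29.8% (27.8 to 31.9%) against 23.4% (21.0 to 25.9%). The lower macrophage share therefore holds for cells named Macrophage, and not for the 2 clusters jointly.

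Against neutrophils the macrophage cluster was level. The neutrophil share of myeloid cells was itself lower in Cyp51-KO tumors, at 28.3% (26.3 to 30.4%) against 37.2% (34.5 to 40.0%). There were 57.2 macrophages for each 100 neutrophils in Cyp51-KO tumors and 58.4 in sg-Ctrl tumors. As a share of macrophages and neutrophils together, macrophages were 36.4% (33.2 to 39.7%) and 36.9% (33.3 to 40.5%), and the range of the log2 ratio from these intervals ran from -0.29 to 0.25. Neutrophils are short-lived granulocytes that answer to chemokines such as Cxcl2. Against mast cells, the tissue granulocytes that store tryptase and chymase, there were 77.8 macrophages for each 100 cells in Cyp51-KO tumors and 154 in sg-Ctrl tumors. Against the dendritic cell cluster there were 332 and 607. The macrophage share therefore lay lower in Cyp51-KO tumors against the monocyte, mast cell and dendritic cell clusters, in each case with intervals apart, and not against neutrophils. Taken over macrophages, monocyte-cluster cells and neutrophils, the lineages the authors had clustered again in a later round, the macrophage share was 21.8% (19.7 to 24.0%) and 26.4% (23.7 to 29.3%), with overlapping intervals. Over all immune cells it was 3.99% and 4.08% (log2 ratio -0.034), a value that also depends on the added CD3+ T cells.

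**Figure D1:**
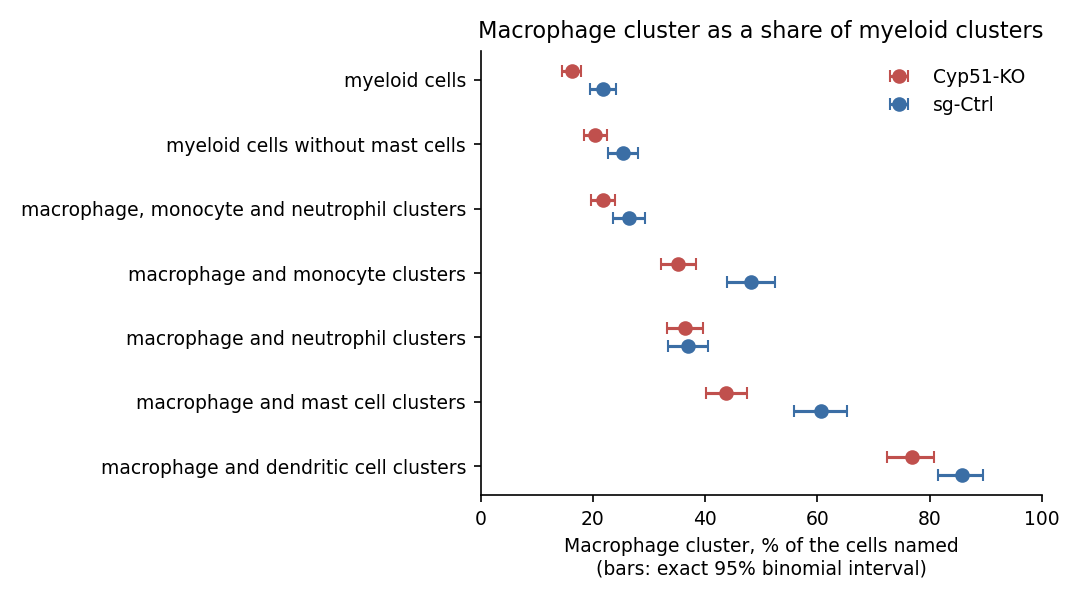
Macrophage cluster as a percentage of the cells named on the vertical axis, in Cyp51-KO (red) and sg-Ctrl (blue) tumors, with exact 95% binomial intervals as bars. Of the 7 shares plotted, the groups lie closest together against neutrophils (36.4% and 36.9%) and furthest apart against mast cells (43.8% and 60.7%).

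The amount of RNA captured per macrophage was also lower in Cyp51-KO tumors. UMIs (unique molecular identifiers, 1 for each captured transcript) per macrophage had a median of 12980 in Cyp51-KO tumors (quartiles 7900 and 22120, lowest 1880, highest 46480). In sg-Ctrl tumors the median was 18453 (quartiles 13239 and 27127, lowest 859, highest 61052). The middle ranges of the groups overlapped. The log2 ratio of the medians was -0.51. That of the monocyte cluster was -0.49, from medians of 13992 and 19716, and the median over all 20 clusters was -0.63. Of the 20 clusters, 18 had a lower median in Cyp51-KO tumors, and 12 had a more negative ratio than macrophages. Neutrophils (log2 ratio 0.050) and the intestinal cell cluster (0.19) went the other way. The lower UMIs were thus not particular to the macrophage cluster, and less RNA per cell cannot be told apart from a lower capture in the Cyp51-KO libraries.

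Behind these medians the shape of the distribution differed. In sg-Ctrl tumors macrophages fell into a large body above 10000 UMIs and a small tail below 5000, with few cells between. Cells of 5000 to under 10000 UMIs numbered 13 of 261 sg-Ctrl macrophages (4.98%, 95% interval 2.68 to 8.37%). In Cyp51-KO tumors they numbered 87 of 315 (27.6%, 22.8 to 32.9%). Cells of at least 30000 UMIs were 19.5% of sg-Ctrl macrophages (14.9 to 24.9%) and 8.89% of Cyp51-KO macrophages (5.99 to 12.6%). In the monocyte cluster, 5000 to under 10000 UMIs were held by 21.6% of Cyp51-KO and 10.7% of sg-Ctrl cells. At least 30000 UMIs were held by 10% and 21.4% of them. Intervals lay apart in both classes there too, so the direction of these shifts was not particular to macrophages. At the low end the order of the groups turned in macrophages. Macrophages under 5000 UMIs were 34 of 261 in sg-Ctrl tumors (13.0%, 9.19 to 17.7%) and 26 of 315 in Cyp51-KO tumors (8.25%, 5.46 to 11.9%), with overlapping intervals. The 10th percentile of UMIs was accordingly higher in Cyp51-KO macrophages, at 5191 against 3575. In the monocyte cluster it was lower, at 4314 against 7916, and cells under 5000 UMIs were 12.4% of Cyp51-KO cells (9.84 to 15.4%) and 4.98% of sg-Ctrl cells (2.75 to 8.22%). The limits of these classes were set after the distributions had been seen.

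**Figure D2:**
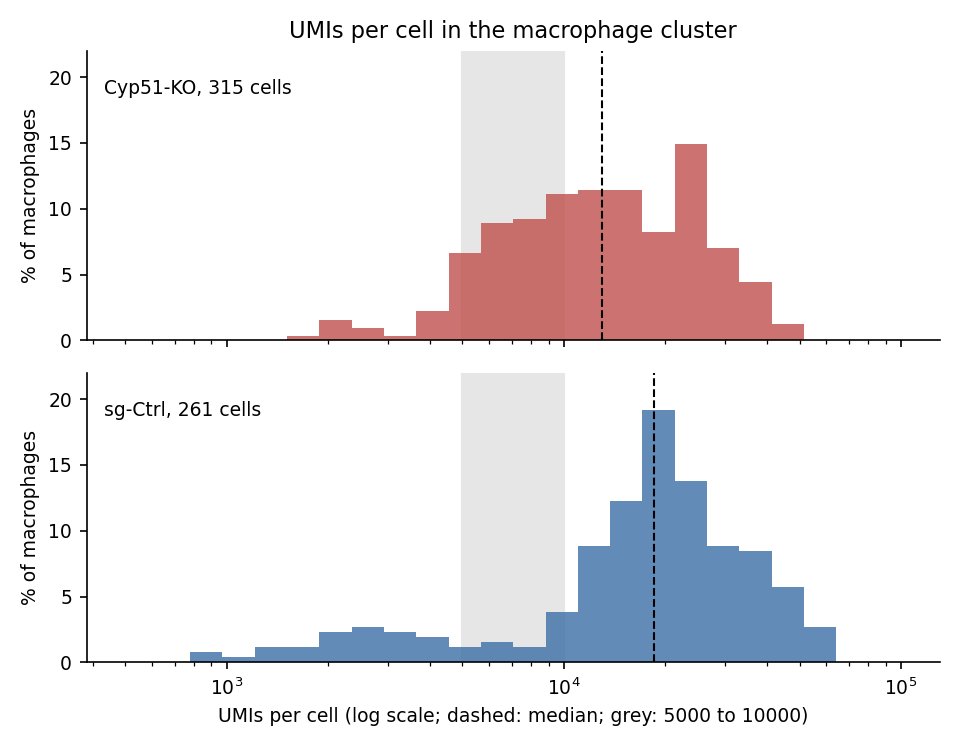
UMIs per cell (log scale) of the macrophage cluster, as a percentage of the macrophages of each group, for 315 Cyp51-KO cells (top) and 261 sg-Ctrl cells (bottom), with the median dashed and the range from 5000 to 10000 UMIs in grey. The grey range holds 27.6% of Cyp51-KO and 4.98% of sg-Ctrl macrophages.

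Compared with the other myeloid cells, macrophages and monocyte-cluster cells were the RNA-rich members of the compartment in both groups. The macrophage median of UMIs ranked 5 of 20 clusters in both groups, and the clusters above it were malignant cells, the monocyte cluster, plasma cells and the second functional NK cluster. Macrophages lay slightly below the monocyte cluster, by a log2 ratio of -0.11 among Cyp51-KO cells and -0.10 among sg-Ctrl cells. Neutrophils had medians of 4040 and 3903 UMIs, mast cells 1785 and 2136, and dendritic cells 5490 and 9460, in Cyp51-KO and sg-Ctrl tumors respectively. Among myeloid cells, macrophages and the monocyte cluster were thus of like depth at the median, and the other clusters were shallower. Neutrophils were spread more widely in Cyp51-KO tumors, with quartiles of 1338 and 11382 UMIs. In sg-Ctrl tumors their quartiles were 2426 and 6137. Their 90th percentiles were 23018 and 12049 UMIs.

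**Figure D3:**
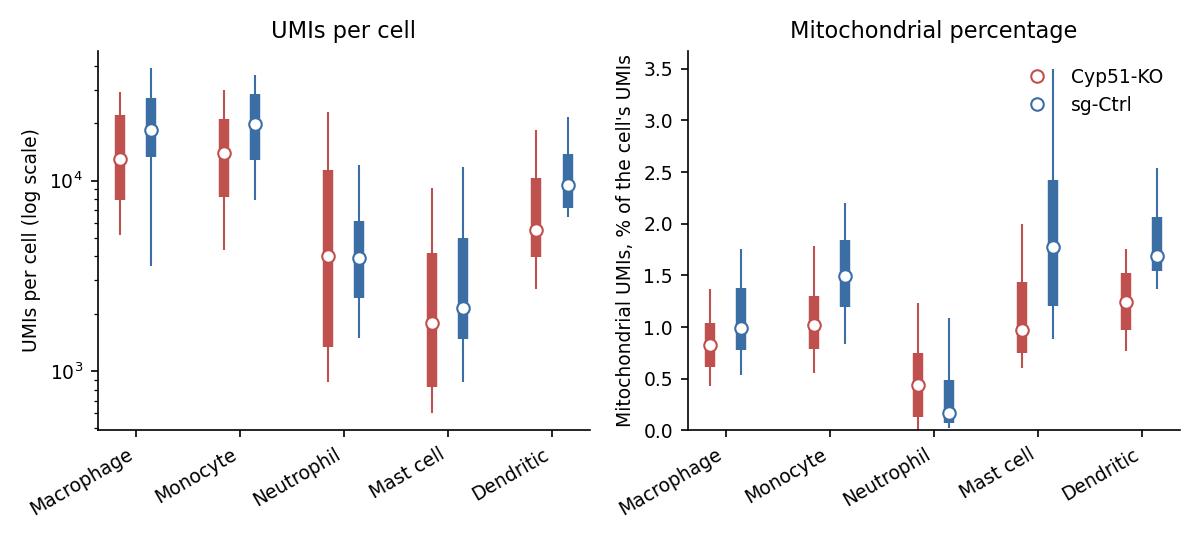
UMIs per cell (left, log scale) and mitochondrial UMIs as a percentage of the UMIs of a cell (right) in the 5 myeloid clusters of Cyp51-KO (red) and sg-Ctrl (blue) tumors. Circles are medians over cells, thick bars quartiles and thin lines the 10th to 90th percentiles. Macrophage medians are 12980 and 18453 UMIs, and 0.825% and 0.986% mitochondrial.

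Because the clusters differ in depth, the macrophage share was also taken within 5 bins of UMIs that divide all myeloid cells into equal parts. The sign of the difference depended on the bin. Among myeloid cells of 5188 to 10994 UMIs, macrophages were 22.5% in Cyp51-KO tumors (98 of 436, 18.6 to 26.7%) and 9.84% in sg-Ctrl tumors (19 of 193, 6.03 to 14.9%). Among those of 10995 to 19884 UMIs they were 23.4% (90 of 385, 19.2 to 27.9%) and 37.4% (91 of 243, 31.3 to 43.9%). In the bin of 19901 to 73361 UMIs they were 27.5% (22.8 to 32.5%) and 41.2% (35.4 to 47.2%). In this deepest bin macrophages and monocyte-cluster cells together were 264 of 346 Cyp51-KO and 256 of 284 sg-Ctrl myeloid cells. The macrophage share there therefore also depends on how many cells of the other clusters reach this depth. The share was lower in Cyp51-KO tumors with intervals apart in 3 bins, which include the shallowest, where macrophages numbered only 4 and 11. It was higher with intervals apart in 1 bin. The bin with the higher share largely coincides with the class of 5000 to 10000 UMIs above.

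Set against the monocyte cluster alone in the same bins, the macrophage share was lower in Cyp51-KO tumors in 4 of 5 bins. It was 32.7% (27.2 to 38.6%) against 49.5% (42.0 to 56.9%) at 10995 to 19884 UMIs. In the bin of 2072 to 5187 UMIs it was 31.1% (28 of 90 cells, 21.8 to 41.7%) against 71.9% (23 of 32, 53.3 to 86.3%). In the bin of 5188 to 10994 UMIs it was 39.5% and 36.5%, with overlapping intervals. The intervals lay apart in 2 of the bins, and 1 bin held only 18 cells in each group.

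**Figure D4:**
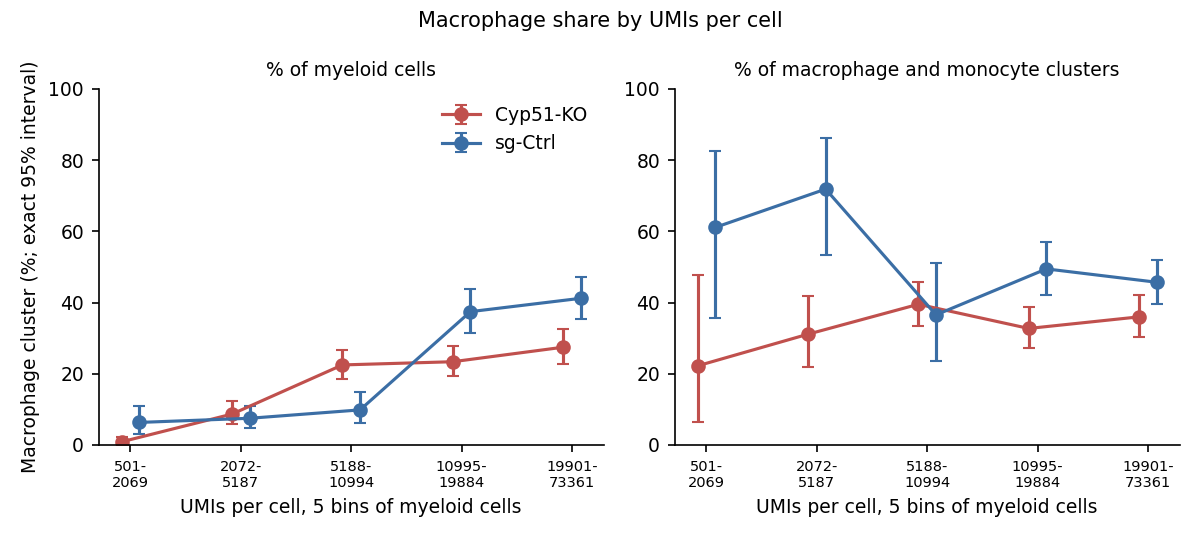
Macrophage cluster as a percentage of myeloid cells (left) and of macrophage and monocyte-cluster cells (right) in 5 bins of UMIs per cell, for Cyp51-KO (red) and sg-Ctrl (blue) tumors with exact 95% binomial intervals. On the left the groups cross, with 22.5% against 9.84% in the middle bin and 27.5% against 41.2% in the deepest. On the right Cyp51-KO tumors lie lower in 4 of 5 bins.

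Genes detected per macrophage followed the UMIs. The median was 3095 genes in Cyp51-KO tumors (quartiles 2210 and 4132, lowest 796, highest 5889) and 3885 in sg-Ctrl tumors (quartiles 2956 and 4758, lowest 502, highest 6958), a log2 ratio of -0.33. Within a group, the ranks of genes and UMIs went together closely across macrophages, with Spearman's rho of 0.979 over 315 Cyp51-KO cells and 0.975 over 261 sg-Ctrl cells, which share their depth. Fewer genes per Cyp51-KO cell were not particular to macrophages, since 19 of the 20 clusters had a lower median. The log2 ratio was -0.34 in the monocyte cluster and -0.45 at the median over all 20 clusters. A more negative ratio than that of macrophages was found in 14 clusters. At equal UMIs little of the difference in macrophages was left. Over 10 bins of macrophage UMIs, Cyp51-KO cells had fewer genes at the median in 9, with log2 ratios of -0.14 to -0.020. The shallowest bin stood apart at 0.25, but its Cyp51-KO cells were deeper, at a median of 3912 against 2458 UMIs. Depths differed less in the other bins. In the deepest, the log2 ratio was -0.12 for UMIs and -0.11 for genes. In the bins of 18627 to 22320 and 26009 to 33571 UMIs, Cyp51-KO cells were slightly deeper. Their log2 ratios were 0.048 and 0.056 for UMIs and -0.040 and -0.042 for genes. In the rest, Cyp51-KO cells were shallower. The ratio of -0.14 came from a bin with only 8 sg-Ctrl macrophages. A line of log10 genes on log10 UMIs was fitted to the macrophages of each group. Read at 15784 UMIs, it gave 3370 genes in Cyp51-KO and 3432 in sg-Ctrl macrophages (log2 ratio -0.026). The monocyte cluster, in 10 bins of its own UMIs, also had fewer genes in Cyp51-KO cells in 9. Beyond its shallowest bin the log2 ratios were -0.090 to -0.0091. Of the sg-Ctrl macrophages, 10 had more than 6500 genes, close to the limit of 7000 above which the authors had removed cells, and 0 of the Cyp51-KO macrophages did.

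The mitochondrial percentage, the part of a cell's UMIs that comes from mitochondrial genes, was low in macrophages of both groups and lower in Cyp51-KO tumors. Its median was 0.825% in Cyp51-KO macrophages (quartiles 0.616 and 1.04%) and 0.986% in sg-Ctrl macrophages (0.777 and 1.38%), a log2 ratio of -0.26. Summed over cells, 44606 of 4863386 UMIs were mitochondrial in Cyp51-KO macrophages, or 0.917% (exact 95% Poisson interval 0.909 to 0.926%). In sg-Ctrl macrophages 62709 of 5405475 were, or 1.16% (1.15 to 1.17%). These intervals cover the counting of molecules only. The median was lower in Cyp51-KO macrophages in all 10 bins of UMIs, by log2 ratios of -0.79 to -0.048. In the shallowest of these bins the depths were unequal, as given above. The bins from 4970 to 10574 UMIs, which hold the lowest of these ratios, had only 8 sg-Ctrl macrophages each. A lower median was the rule in this table, since 17 of the 20 clusters had one and the median of their log2 ratios was -0.36. The monocyte cluster had medians of 1.02% and 1.49% (log2 ratio -0.54). In both groups macrophages lay below it, by a log2 ratio of -0.31 among Cyp51-KO cells and -0.60 among sg-Ctrl cells.

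**Figure D5:**
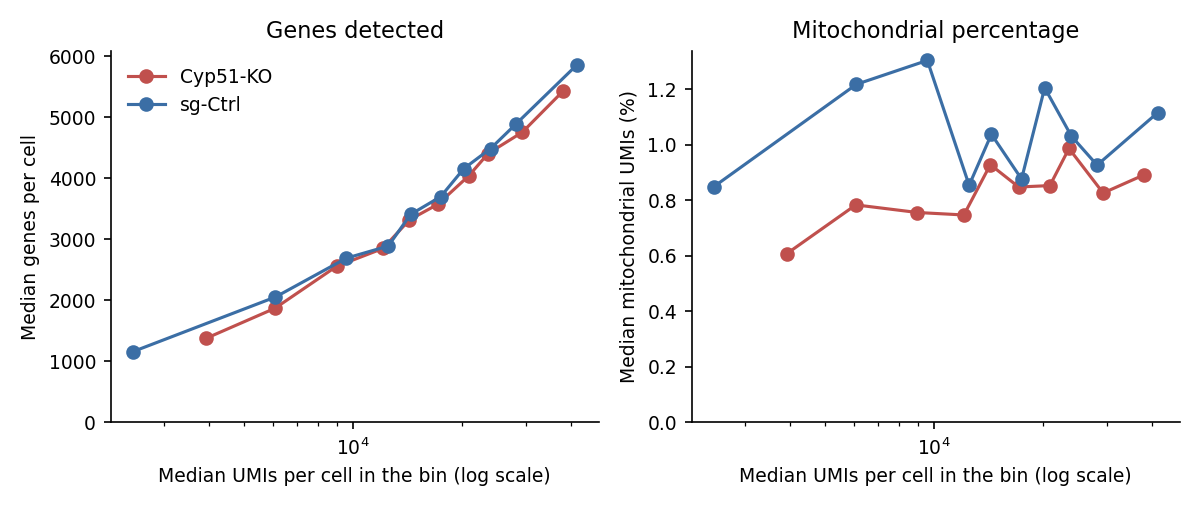
Median genes per cell (left) and median mitochondrial percentage (right) of macrophages in 10 bins of UMIs, plotted at the median UMIs of the cells of each group in the bin (log scale), for Cyp51-KO (red) and sg-Ctrl (blue) tumors. The gene curves nearly coincide, with log2 ratios of -0.14 to -0.020 beyond the shallowest bin, and the mitochondrial percentage is lower in Cyp51-KO tumors in 10 of 10 bins.

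The totals per cell after SCTransform, the normalization the authors applied before clustering, were close between groups. As a normalization for depth it draws totals together, so this closeness does not bear on the RNA per macrophage. Over all 20 clusters the median log2 ratio of these totals was -0.058. The median macrophage had a total of 7741 in Cyp51-KO tumors (quartiles 7335 and 7991) and 8048 in sg-Ctrl tumors (7752 and 8270), a log2 ratio of -0.056 where that of the raw UMIs was -0.51. Genes above 0 on this scale had medians of 2402 and 2611 (log2 ratio -0.12). Values of single genes on either scale, among them Apoe and Il1b, were not analysed here.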

How the data were processed

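One table with 1 line per cell was analysed. The submitters' processing notes name Cell Ranger 7.0, the genome build GRCm38, Seurat 4.2.0 and R 4.2.0. By the study's methods, the authors merged samples, kept cells of 500 to 100000 UMIs, 200 to 7000 genes and at most 5% mitochondrial UMIs, applied SCTransform, clustered the cells, left out some very small clusters of sg-Ctrl cells, and clustered the neutrophil and macrophage or monocyte cells again. The deposited columns used were raw UMI counts, numbers of genes detected, SCTransform totals and the percent of UMIs from mitochondrial genes, as the authors had computed them. For doublets, the sources used here give no treatment, and a caller could not be run without values per gene. Cells could not be thinned to 1 depth for the same reason, so they were compared in bins of UMIs.

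Groups were taken from the deposited group name of each cell, CYP51KO (Cyp51-KO) or WT (the study's label for sg-Ctrl). Values were computed here with Python 3.11.15, NumPy 2.4.6, pandas 2.3.3, SciPy 1.17.1 and Matplotlib 3.10.9. They were shares with exact 95% intervals, quantiles, and log2 ratios of Cyp51-KO over sg-Ctrl, ranged by dividing opposite bounds of the intervals. Values were also taken in 5 or 10 UMI bins of equal cell number. Only the comparison of genes at equal UMIs was tried on simulated data. That trial used more cells than observed, and its tolerance for bins was wider than the mean ratios reported over bins. Binned shares and mitochondrial percentages were not tried in this way. Mitochondrial UMIs were recovered as percent times UMIs, whole within 0.01 in 100% of cells. The cluster and the comparisons were chosen with earlier results of these data known. Genes are named only from the study's list of leading genes per cluster and the given marker.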

Additional observations from a re-analysis of the deposited data

Results flagged for a closer look

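The following values went opposite ways in neighbouring clusters under the same comparison of Cyp51-KO with sg-Ctrl tumors. With 1 set of cells per group, these differences between clusters were not tested. The macrophage share of myeloid cells had a log2 ratio of -0.42, where that of the monocyte cluster was 0.35. The neutrophil share went with that of macrophages (-0.39), and those of mast cells (0.56) and dendritic cells (0.45) went with the monocyte cluster. All are shares of the same myeloid total, so a lower share of some clusters must be met by a higher share of others. The opposite signs are therefore not independent of each other. The median mitochondrial percentage had a log2 ratio of -0.26 in macrophages and 1.40 in neutrophils. The neutrophil medians rested on few molecules, with a median of 24 mitochondrial UMIs per cell in Cyp51-KO tumors and 6 in sg-Ctrl tumors, and 78 of 551 and 41 of 447 cells at 0. Summed over neutrophils, the difference was much smaller, at 0.742% against 0.610% of UMIs, where the sums over macrophages were 0.917% and 1.16%. The 10th percentile of UMIs had a log2 ratio of 0.54 in macrophages and -0.88 in the monocyte cluster.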

How the results depend on the processing

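No paired analysis was possible because a cell's name gives its group but no library, and for the same reason leaving out each library was not run. The macrophage share of myeloid cells (log2 ratio -0.42) was -0.019 over macrophages and neutrophils, -0.034 over all immune cells and -0.10 per NK, B or plasma cell. Its other alternatives ran within the counting range of the reported value. The log2 ratio of UMIs (-0.51) was -0.056 for SCTransform totals, which the normalization itself draws together. The ratio of raw UMIs turned to 0.54 at the 10th percentile. This summary was chosen after the data were seen, as were the 90th percentile and a minimum of 5000 UMIs. The mean log2 ratio of genes over 5 UMI bins was 0.032 and turned to -0.029 in 10 bins and to -0.026 on the fitted line. In the shallowest of the 5 bins the groups had medians of 5547 and 2832 UMIs, so this bin did not hold equal depths. The ratios of genes per cell and of the mitochondrial percentage kept their sign under a stricter filter on UMIs and mitochondrial percentage, without the 5% of cells with the most UMIs, as means, and from 5000 UMIs up. Counting intervals leave out differences between tumors and libraries.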

Other observations

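Macrophages under 5000 UMIs were few in both groups and had a different depth in each. The 34 such cells of sg-Ctrl tumors had a median of 2458 UMIs, 1159 genes and 0.849% mitochondrial UMIs (quartiles 0.552 and 1.03%). The 26 of Cyp51-KO tumors had a median of 4142 UMIs, 1437 genes and 0.640% mitochondrial UMIs (quartiles 0.378 and 1.26%). Macrophages with more than 2% mitochondrial UMIs were 14 of 315 (4.44%) in Cyp51-KO tumors and 19 of 261 (7.28%) in sg-Ctrl tumors. A lower percentage of such cells was not particular to macrophages. In the monocyte cluster they were 6.38% and 16.4%, in mast cells 9.88% and 40.8%, and in dendritic cells 5.26% and 32.6%. In neutrophils they were 3.99% and 3.58%.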
